A study of Rattus norvegicus with 12 samples.

Results

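Enzymes of the liver that make, use and break down methionine and cysteine were followed across 4 diets: Mat1a, Gnmt, Ahcy, Bhmt, Cbs, Cth and Cdo1. The genes were chosen with earlier results of these data known, so the choice may not be independent of their values. Probe sets (groups of short probes, each group read as 1 value) were taken by gene symbol. Every one that the array's annotation gives to 1 of these symbols alone was included. This gave 11 probe sets for the 7 genes, of 8799 on the array, and all 11 were among the 8740 that were tested after array controls were left out. Gnmt had 3 probe sets, Cth and Cdo1 had 2 each, and the other genes had 1 each.

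The study measured liver RNA of male Sprague-Dawley rats on 12 Affymetrix arrays, to compare the amount and the kind of fat in the diet in the development of fatty liver. Rats of 150 g at the start carried a cannula into the stomach, through which they were overfed by 17% of calories for 21 days. The 4 groups received 5% fat as corn oil, 70% fat as corn oil, 5% fat as olive oil or 70% fat as olive oil, with 3 arrays each. Corn oil is rich in polyunsaturated and olive oil in monounsaturated fatty acids. Diets had equal calories, so more fat came with less carbohydrate, and an effect of fat cannot be told apart from one of carbohydrate. No group was fed without excess calories, and echium oil, which the protocol also names, was not analysed here. Each array held pooled RNA, and how many rats a pool combined is not stated in the labels. The p-values therefore measure the spread between pools, and with 3 pools a group their number limits the precision. In whole liver, fewer cells of a type and less RNA per cell cannot be told apart.

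As background, methionine adenosyltransferase (Mat1a) joins methionine to ATP to make S-adenosylmethionine, the cell's main methyl donor. Transfer of the methyl group leaves S-adenosylhomocysteine, which is split to homocysteine. Homocysteine is either methylated back to methionine or passed down the transsulfuration route to cysteine, which is oxidised toward taurine and sulfate or built into glutathione. The liver carries out much of this metabolism, and loss of these enzymes or of dietary methyl donors is known to lead to fat accumulation in the liver.

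The stretches upstream of 4 of the genes are printed because Mat1a and Gnmt held probe sets that passed the test, and Ahcy and Cth had the most similar deviations within diets. Each is the 250 bases before the annotated gene start, 5′ to 3′ on the gene's own strand, from RefSeq on build GRCr8. Of the 7 genes, 6 matched the table of such stretches, and Cdo1 is named only. Capitals mark matches, on either strand, to 6 short motifs: AGGTCA (nuclear receptors), TGTTCT (glucocorticoid receptor), CACGTG (an E box), GGGCGG (the GC box), CCAAT (the CCAAT box, ATTGG on the other strand) and TATAAA (the TATA box).
Mat1a upstream, chr16:17016918-17017167 (plus strand): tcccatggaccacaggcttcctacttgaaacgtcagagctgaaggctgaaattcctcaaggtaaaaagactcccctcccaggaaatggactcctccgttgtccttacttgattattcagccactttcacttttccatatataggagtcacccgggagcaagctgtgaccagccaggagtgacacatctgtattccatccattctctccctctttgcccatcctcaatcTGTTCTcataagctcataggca
Gnmt upstream, chr9:21752032-21752281 (plus strand): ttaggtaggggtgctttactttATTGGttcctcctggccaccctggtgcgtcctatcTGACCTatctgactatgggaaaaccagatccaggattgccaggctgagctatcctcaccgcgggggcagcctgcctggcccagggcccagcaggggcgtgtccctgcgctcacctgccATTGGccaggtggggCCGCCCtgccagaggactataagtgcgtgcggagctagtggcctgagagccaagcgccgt
Ahcy upstream, chr3:164044563-164044812 (minus strand): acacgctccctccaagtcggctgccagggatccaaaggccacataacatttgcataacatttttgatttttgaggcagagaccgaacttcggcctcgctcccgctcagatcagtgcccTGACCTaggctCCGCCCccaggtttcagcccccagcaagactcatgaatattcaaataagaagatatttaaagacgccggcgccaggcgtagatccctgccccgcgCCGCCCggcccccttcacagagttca
Cth upstream, chr2:249661067-249661316 (minus strand): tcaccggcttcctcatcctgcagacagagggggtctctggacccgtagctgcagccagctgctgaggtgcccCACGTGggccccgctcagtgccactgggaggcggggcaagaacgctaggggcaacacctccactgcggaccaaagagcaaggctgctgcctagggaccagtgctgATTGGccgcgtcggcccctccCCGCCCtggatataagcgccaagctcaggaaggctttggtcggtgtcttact
The Mat1a stretch held 1 match, TGTTCT at position -22 relative to the start, a motif found in 17.5% of the 33469 stretches of this length. The Gnmt stretch held CCAAT at positions -228 and -75, AGGTCA at -193 and GGGCGG at -60. CCAAT occurred in 34% of all stretches, AGGTCA in 14.1% and GGGCGG in 30.5%. The Ahcy stretch held AGGTCA and 2 GC boxes, and the Cth stretch held CACGTG (5.59% of all stretches), a GC box and a CCAAT box. TATAAA, present in 12.9% of all stretches, was found only in that of Bhmt among the 6 searched. A match of so few letters is a description of the sequence, and no measurement in these arrays bears on factor binding there.

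The deposited values are log2 differences from a probe set's own median across the 12 arrays, so they give no absolute level, and genes are not ranked against each other by level. The labelled tissue could not be checked by the level of hepatocyte genes for the same reason. The arrays differed in a sign of RNA integrity or labelling that bears on every oil comparison below. The 3′/5′ index was the centred log2 value of the 3′ control probe sets of actin and GAPDH minus that of the 5′ ones. Its 0 point is therefore arbitrary, and only differences between arrays can be read from it. The index averaged 1.28 ± 0.28 with 5% corn oil and 0.715 ± 0.48 with 70% corn oil (SD, n = 3 each). It averaged -0.364 ± 0.058 with 5% olive oil and -0.346 ± 0.10 with 70% olive oil (SD, n = 3 each). All 6 corn oil arrays lay above all 6 olive oil arrays, with a difference of 1.35 (exact permutation p = 0.00216, two-sided, the smallest that 924 arrangements allow). Of 23 stellate cell probe sets, 9 were higher with corn oil at 5% fat and 0 lower, and of 34 hepatocyte probe sets 2 were higher and 8 lower. Of 18 macrophage probe sets 2 were higher and 4 lower. Over all tested probe sets, 10.1% were higher and 9.36% lower at 5% fat. At 70% fat 1 stellate probe set was higher and 0 lower, and 0 hepatocyte probe sets were higher and 2 lower. The macrophage counts there were 3 higher and 1 lower, beside 3.96% higher and 4.55% lower over all. The summed stellate values ran from 1.98 to 8.78 with 5% corn oil, 0.464 to 4.65 with 70% corn oil, -6.09 to -0.949 with 5% olive oil and -1.25 to -0.660 with 70% olive oil. The summed hepatocyte values ran, in the same order, from -5.30 to -3.53, -2.10 to -0.511, 0.245 to 6.31 and 0.246 to 4.29. The part of the cell markers in the results below was not tested, and which markers are at 0 cannot be read from centred values.

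The oil comparison asks whether the kind of fat matters at a fixed amount of fat. With 5% fat, Mat1a was 6.11-fold lower with corn oil than with olive oil, 1 of the 2 Cdo1 probe sets was 2.65-fold lower and 1 of the 3 Gnmt probe sets was 2.58-fold lower. With 70% fat, Mat1a was 2.76-fold lower and the same Cdo1 probe set 1.87-fold lower. No probe set of Ahcy, Bhmt, Cbs or Cth passed the test in either comparison. Thus 3 of 11 probe sets, all lower with corn oil, passed at 5% fat, where 19.5% of all tested probe sets passed in either direction and 9.36% were lower. At 70% fat 2 of 11 passed, both lower, against 8.51% of all in either direction and 4.55% lower. The median change of the 11 was -0.34 at 5% fat and -0.08 at 70% fat, beside 0.06 and 0.01 over all probe sets. Arrays of the 2 oils did not overlap for 3 members at 5% fat, against 41.3% of all probe sets, and for 3 members at 70% fat (2 lower, 1 higher), against 27.2%. None of these calls remained when the 3′/5′ index was a term in the model, a fit in which 0 of 8740 probe sets passed in any oil comparison and in which index and oil move together.

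**Figure D1:**
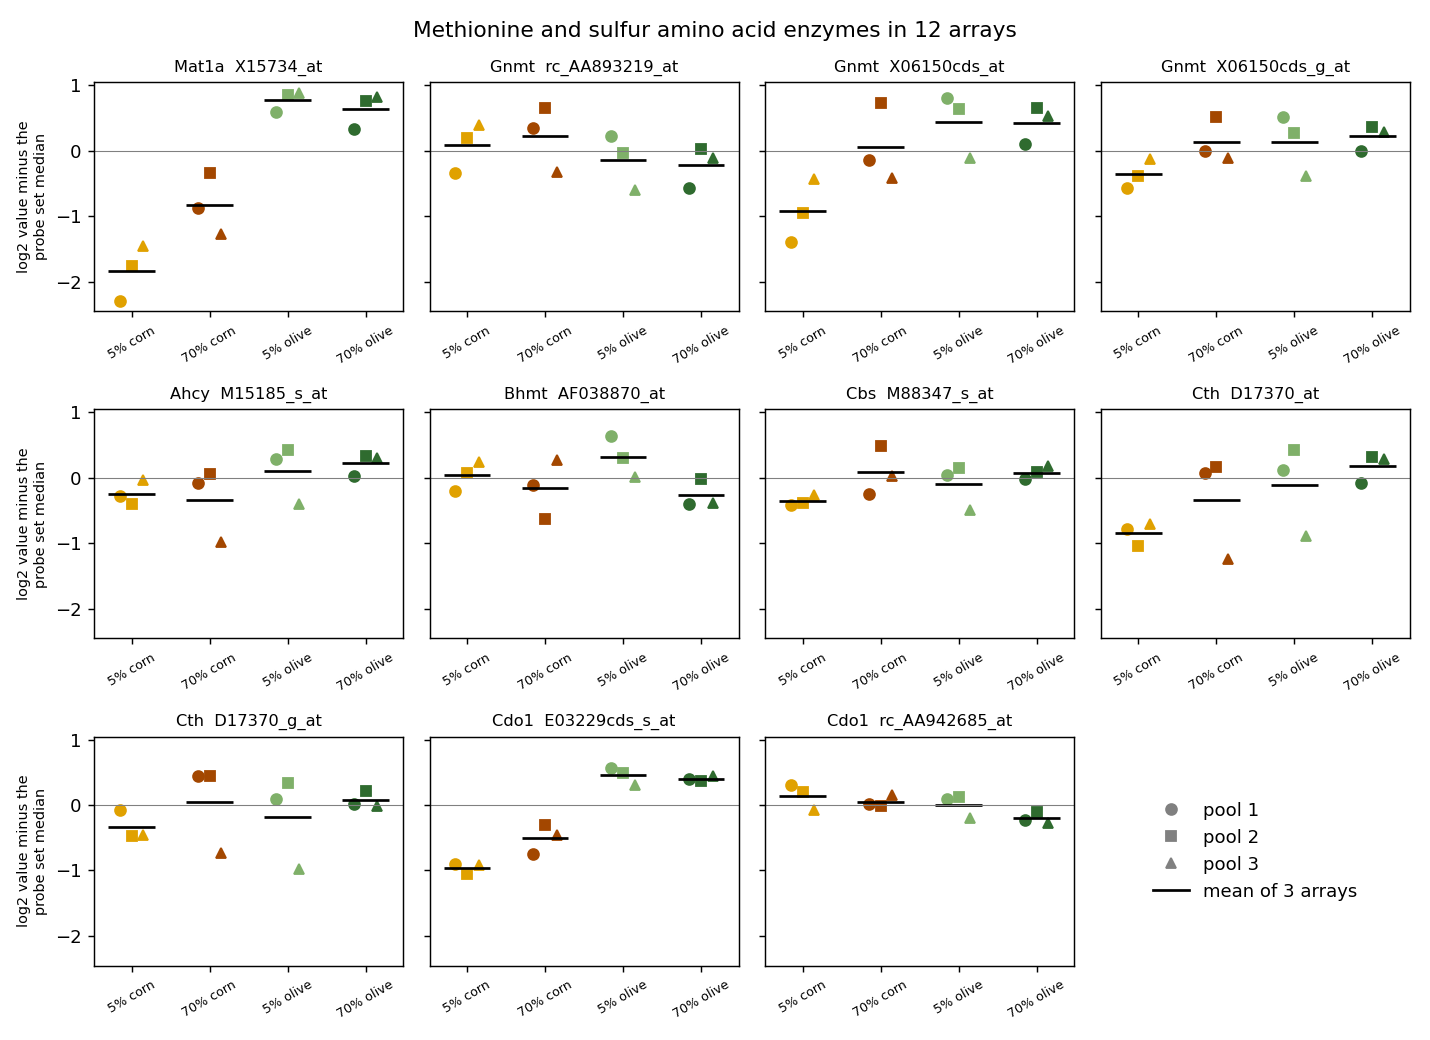
Values of the 11 probe sets in each of the 12 arrays, as log2 differences from the median of the probe set (vertical axis), by diet (horizontal axis), with markers for the pool number and a bar at the mean of 3 arrays. Mat1a and the Cdo1 probe set E03229cds_s_at are below 0 in all 6 corn oil arrays and above 0 in all 6 olive oil arrays, while the other Cdo1 probe set stays within 0.31 of 0.

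Mat1a (probe set X15734_at), the liver form of the enzyme that makes S-adenosylmethionine, had the widest separation. Its values were -2.30, -1.76 and -1.45 with 5% corn oil and -0.88, -0.33 and -1.27 with 70% corn oil. They were 0.60, 0.85 and 0.89 with 5% olive oil and 0.33, 0.76 and 0.82 with 70% olive oil. All 6 corn oil arrays were below all 6 olive oil arrays at the same and at the other amount of fat. The change from olive to corn oil was -2.61 ± 0.24 (SE) at 5% fat (limma adjusted p = 9.10e-05) and -1.46 ± 0.24 at 70% fat (adjusted p = 0.00620), and both calls were kept without each array in turn. With the index as a term the changes were -0.81 ± 0.35 and -0.29 ± 0.25 (adjusted p = 0.823 and 0.807). The diets ranked 5% corn, 70% corn, 70% olive and 5% olive oil from low to high. Of the neighbours in this order, only 70% corn and 70% olive oil differed past the threshold.

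Gnmt codes for glycine N-methyltransferase, which uses up S-adenosylmethionine by methylating glycine and so limits its level in the liver. Its 3 probe sets gave different answers. For X06150cds_at the values were -1.39, -0.95 and -0.43 with 5% corn oil and 0.80, 0.63 and -0.11 with 5% olive oil. These groups did not overlap, and the change was -1.37 ± 0.32 (adjusted p = 0.0110). The call was lost without pool 1 of 5% corn oil (-1.13, adjusted p = 0.0511) and turned to 0.75 ± 0.59 with the index as a term (adjusted p = 0.868). With 70% fat the same probe set was at -0.14, 0.73 and -0.42 with corn oil and at 0.11, 0.65 and 0.52 with olive oil, which overlapped. That change was -0.37, with a 95% interval from -1.08 to 0.33.

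The neighbouring Gnmt probe set X06150cds_g_at had a change of -0.50 ± 0.22 at 5% fat (adjusted p = 0.146) and of -0.08 ± 0.22 at 70% fat (adjusted p = 0.877). The third, rc_AA893219_at, had changes with the opposite sign, 0.22 ± 0.28 and 0.44 ± 0.28 (adjusted p = 0.633 and 0.394). Averaged into 1 value, Gnmt did not pass at 5% fat (-0.55 ± 0.27, adjusted p = 0.189) or at 70% fat (-0.01 ± 0.27, adjusted p = 0.992). A direction for the gene as a whole thus depends on the probe set read.

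Ahcy, which splits S-adenosylhomocysteine to homocysteine and adenosine, was at -0.28, -0.41 and -0.03 with 5% corn oil and at 0.28, 0.42 and -0.41 with 5% olive oil (M15185_s_at). With 70% fat it was at -0.08, 0.06 and -0.97 with corn oil and at 0.03, 0.33 and 0.30 with olive oil. The oils overlapped at both amounts of fat. The changes were -0.34 (95% interval -0.91 to 0.23, adjusted p = 0.401) and -0.55 (-1.12 to 0.01, adjusted p = 0.222). These intervals leave room for a difference of about the size seen for Gnmt X06150cds_g_at, so neither a change nor its absence is shown.

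Bhmt, which methylates homocysteine back to methionine with betaine, was at -0.20, 0.07 and 0.24 with 5% corn oil and at 0.65, 0.31 and 0.02 with 5% olive oil (AF038870_at). With 70% fat it was at -0.10, -0.62 and 0.27 with corn oil and at -0.40, -0.02 and -0.39 with olive oil. The oils overlapped in both cases. The oil changes were -0.28 (95% interval -0.76 to 0.19, adjusted p = 0.406) and 0.12 (-0.36 to 0.59, adjusted p = 0.815).

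Cbs and Cth carry out the successive steps of transsulfuration, cystathionine formation and its cleavage to cysteine. Cbs (M88347_s_at) lay from -0.41 to -0.26 with 5% corn oil, -0.24 to 0.48 with 70% corn oil, -0.49 to 0.15 with 5% olive oil and -0.02 to 0.18 with 70% olive oil. Its oil changes were -0.25 (95% interval -0.65 to 0.15) and 0.01 (-0.39 to 0.41). The 2 Cth probe sets spread more than any other member. D17370_at was at -0.79, -1.04 and -0.70 with 5% corn oil against 0.12, 0.43 and -0.89 with 5% olive oil. Pool 3 of olive oil thus lay among the corn oil pools, and the change of -0.72 (95% interval -1.52 to 0.07) did not pass (adjusted p = 0.196). Without that pool the change was -1.11 (adjusted p = 0.0478). With 70% fat, pool 3 of corn oil was at -1.25 and the other two at 0.08 and 0.16, against -0.08, 0.32 and 0.29 with olive oil. D17370_g_at had oil changes of -0.15 (95% interval -0.90 to 0.59) and -0.02 (-0.77 to 0.72).

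Cdo1 is cysteine dioxygenase, which oxidises cysteine on the way to taurine and sulfate. Its probe set E03229cds_s_at was at -0.90, -1.06 and -0.91 with 5% corn oil and at -0.74, -0.30 and -0.46 with 70% corn oil. It was at 0.56, 0.49 and 0.30 with 5% olive oil and at 0.40, 0.37 and 0.44 with 70% olive oil. The 6 arrays of corn oil were all below the 6 of olive oil. The changes were -1.41 ± 0.11 at 5% fat (adjusted p = 4.12e-05) and -0.91 ± 0.11 at 70% fat (adjusted p = 0.00174), and both were kept without each array in turn. With the index as a term they were -1.03 ± 0.29 and -0.66 ± 0.20, neither past the threshold (adjusted p = 0.823 and 0.417). The diets ranked as for Mat1a, and again only 70% corn and 70% olive oil differed among neighbours.

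The second Cdo1 probe set, rc_AA942685_at, did not show this. It lay from -0.08 to 0.31 with 5% corn oil, -0.02 to 0.15 with 70% corn oil, -0.20 to 0.12 with 5% olive oil and -0.28 to -0.11 with 70% olive oil. Its oil changes were 0.14 ± 0.12 and 0.25 ± 0.12 (adjusted p = 0.464 and 0.217), and at 70% fat its arrays did not overlap, with corn oil higher. As 1 value per gene, Cdo1 had an oil change of -0.64 ± 0.09 at 5% fat (adjusted p = 0.00102) and of -0.33 ± 0.09 at 70% fat (adjusted p = 0.0588).

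Averaged over both amounts of fat, the same 3 probe sets passed, against 24.3% of all probe sets in either direction and 11.1% lower. The mean oil change was -2.04 ± 0.17 for Mat1a (adjusted p = 2.19e-05), -1.16 ± 0.08 for Cdo1 E03229cds_s_at (adjusted p = 6.65e-06) and -0.87 ± 0.23 for Gnmt X06150cds_at (adjusted p = 0.0149). As 1 value per gene, Gnmt did not pass here (-0.28 ± 0.19, adjusted p = 0.333). For Mat1a and Cdo1, but not Gnmt, the 6 arrays of each oil did not overlap, which held for 10.7% of all probe sets. Without pool 3 of 5% olive oil 6 members passed here, adding Gnmt X06150cds_g_at, Ahcy and Cth D17370_at, and 5 passed at 5% fat, adding the first and last of these. Of all 8740 probe sets 1893 passed in the mean in that fit and 1281 at 5% fat, beside 2120 and 1704 with all arrays. Without pool 3 of 5% corn oil, Cdo1 rc_AA942685_at passed in the mean as higher with corn oil (0.25, adjusted p = 0.0358), opposite to the other Cdo1 probe set. Without pool 2 of 70% corn oil, Ahcy passed in the mean (-0.54, adjusted p = 0.0439).

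**Figure D2:**
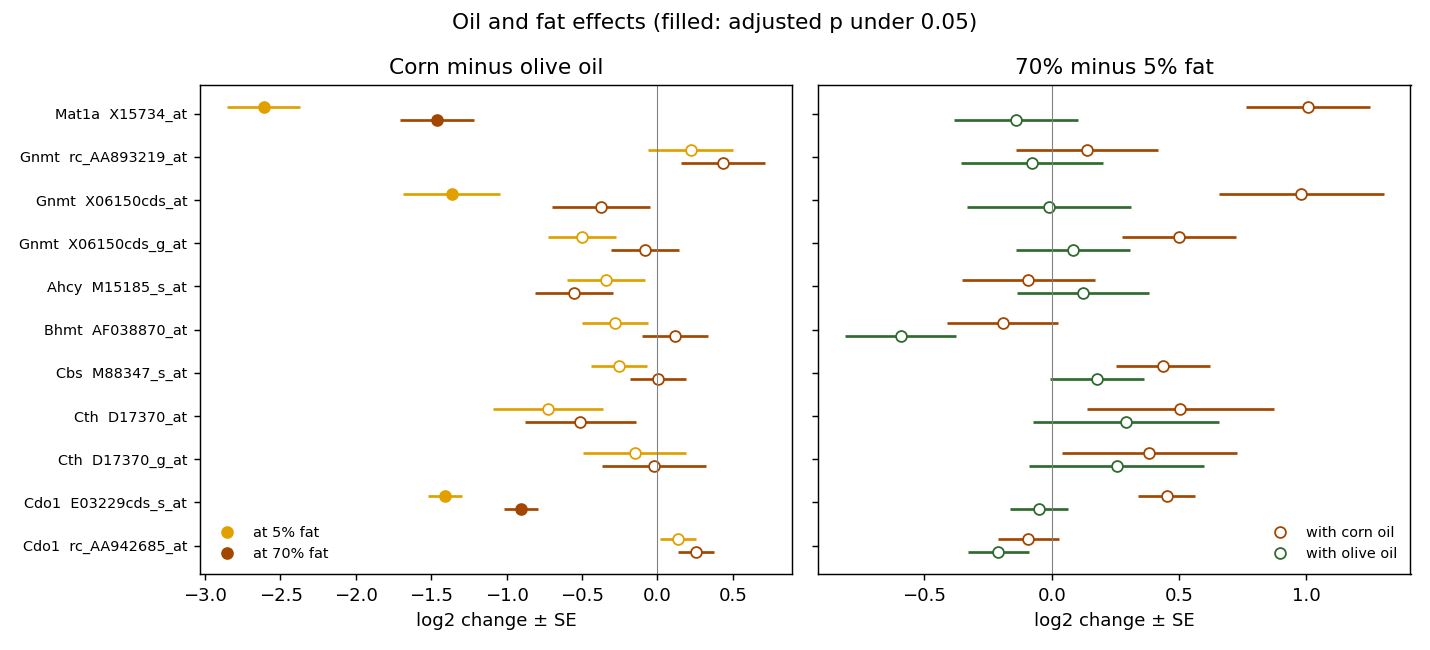
Log2 change with its SE (horizontal axis) for each of the 11 probe sets (vertical axis), corn minus olive oil on the left and 70% minus 5% fat on the right. Filled points passed the limma test at an adjusted p of 0.05: 3 probe sets at 5% fat and 2 at 70% fat on the left, and 0 on the right.

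The fat comparison asks whether 70% fat in place of carbohydrate differs from 5% fat with the same oil. With corn oil, Mat1a was 2.01-fold higher with 70% fat (1.01 ± 0.24), Gnmt X06150cds_at 1.97-fold higher (0.98 ± 0.32) and Cdo1 E03229cds_s_at 1.37-fold higher (0.45 ± 0.11). None passed the limma test, with adjusted p of 0.0545, 0.129 and 0.0606. Of the 11 members 0 passed, where 2.11% of all probe sets did. An unadjusted p under 0.05 was found for 5 members and for 18.8% of all probe sets. The arrays of 5% and 70% corn oil did not overlap for 5 members, all higher with 70% fat, against 18.9% of all probe sets. These were Mat1a, Gnmt X06150cds_at and X06150cds_g_at, Cbs and Cdo1 E03229cds_s_at. Mat1a passed without pool 3 of 5% corn oil (1.20, adjusted p = 0.0285) or pool 3 of 70% corn oil (1.23, adjusted p = 0.0300), and Cdo1 without pool 1 of 70% corn oil (0.57, adjusted p = 0.0187). The index differed by -0.56 between these groups (exact permutation p = 0.2, two-sided, where 20 arrangements allow no p below 0.1). With it as a term the changes were 0.39 ± 0.17, 0.26 ± 0.29 and 0.32 ± 0.14.

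With olive oil, where the index differed by 0.018 between the amounts of fat (exact permutation p = 0.8), 0 of 11 members passed, against 0.435% of all probe sets. An unadjusted p under 0.05 was found for 1 member and for 8.46% of all probe sets, a like share. That member was Bhmt, at -0.59 ± 0.22 (1.51-fold lower with 70% fat, limma adjusted p = 0.439). Its 3 arrays at 70% fat were all below the 3 at 5% fat, a lack of overlap found for 19.8% of all probe sets. Bhmt with the index as a term was at -0.60 ± 0.21 (adjusted p = 0.331). With corn oil its arrays overlapped, and its fat change was -0.19 ± 0.22. For Mat1a, Gnmt X06150cds_at and Cdo1 E03229cds_s_at the fat changes with olive oil were -0.14, -0.01 and -0.05, with 95% intervals from -0.67 to 0.39, -0.71 to 0.69 and -0.30 to 0.19. Averaged over the oils 0 of 11 members passed, against 2.28% of all, and 0 were free of overlap, against 1.02%. An unadjusted p under 0.05 was found for 4 members and for 14.5% of all probe sets.

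Whether the fat effect depended on the oil was tested as an interaction, in which 0 of 11 members and 0% of all 8740 probe sets passed. Mat1a (1.15 ± 0.34, unadjusted p = 0.00586, limma adjusted p = 0.327) and Cdo1 E03229cds_s_at (0.50 ± 0.16, unadjusted p = 0.00827, adjusted p = 0.340) were the 2 members with an unadjusted p under 0.05, which 11.8% of all probe sets had. The larger oil difference at 5% than at 70% fat is thus not shown for either gene after adjustment.

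Probe sets of 1 gene were compared within each array, a comparison chosen after the values were seen. All 5 pairs differed between the oils. The Gnmt signal of rc_AA893219_at minus that of X06150cds_at was 1.01 ± 0.17 with 5% corn oil, 0.17 ± 0.29 with 70% corn oil, -0.58 ± 0.083 with 5% olive oil and -0.64 ± 0.027 with 70% olive oil (SD, n = 3 each). The oils differed by 1.20 (exact permutation p = 0.00216, the smallest possible, Benjamini-Hochberg adjusted over 5 pairs 0.00271). For Cdo1, E03229cds_s_at minus rc_AA942685_at differed by -1.35 and for Cth, D17370_at minus D17370_g_at differed by -0.53, each with the same exact permutation p. The other Gnmt pairs differed by 0.62 (exact permutation p = 0.00216) and by -0.58 (exact permutation p = 0.00433). The Gnmt pairs share probe sets, so the 5 pairs are not independent, and the permutation did not hold the amount of fat fixed. Within 1 amount of fat, 3 arrays against 3 allow no exact p below 0.1. A difference between probe sets of a gene shows unequal change and does not say which of them follows the amount of transcript.

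**Figure D3:**
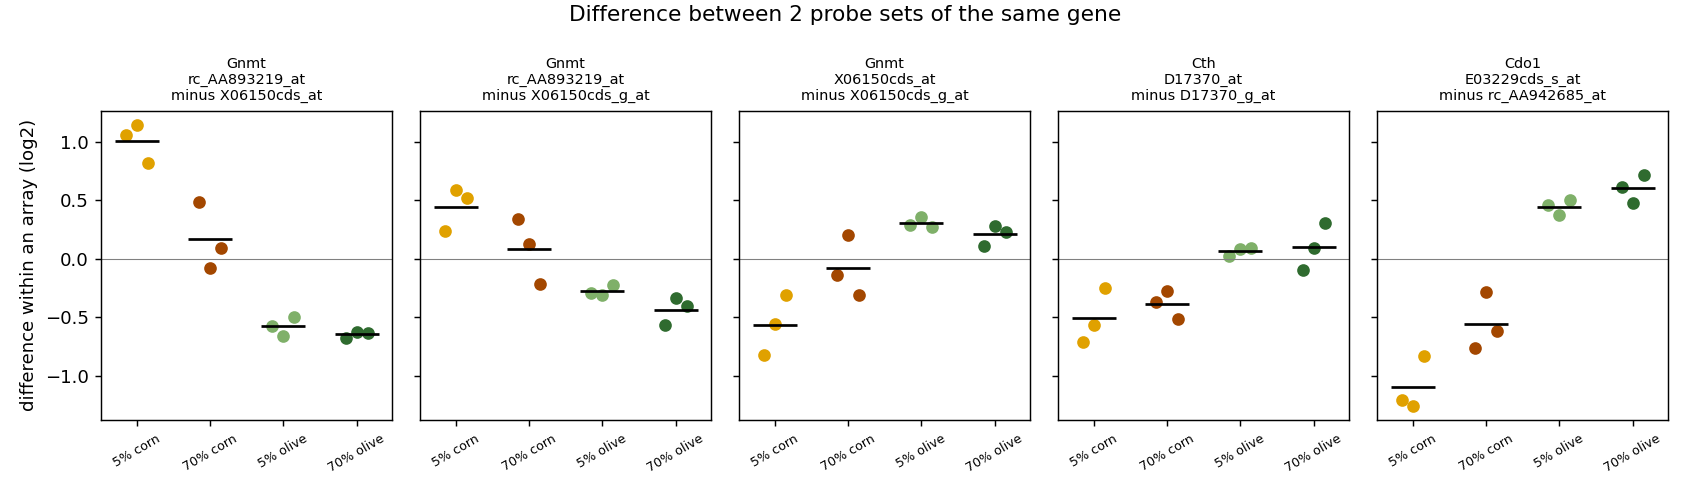
Difference in log2 value between 2 probe sets of the same gene within an array (vertical axis), by diet (horizontal axis), with 1 point per array and a bar at the mean of 3. In every panel but that of Gnmt X06150cds_at minus X06150cds_g_at the corn and olive oil arrays do not overlap. The oils differ by 1.20 in the leftmost Gnmt panel and by -1.35 in the Cdo1 panel.

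Over the whole array, classes of probe sets by name, which hold different genes, differed in their share of calls. Of 3417 probe sets whose name starts with rc_, 18.6% were higher and 6.44% lower with corn oil in the mean over both amounts of fat. Of 638 whose name contains cds, 6.74% were higher and 23.7% lower, and of the other 4685, among them Mat1a, 9.99% were higher and 12.8% lower. The 3 members with cds in their name include both the passing Gnmt and the passing Cdo1 probe set, and neither member starting with rc_ passed. These members are few, and whether the name class plays a part in their calls was not tested. Of 1565 genes with several probe sets, 772 had at least 1 call in the mean oil comparison, 652 had a call beside a miss, and 97 had calls in both directions.

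Within the 6 corn oil arrays, 2 probe sets of Gnmt followed the index after adjustment over 22 relations by Pearson's r, and 0 did by Spearman's rho. These arrays mix 2 diets that also differ in the index and in several members, and the permutation does not hold the diet fixed, so each relation partly restates the fat comparison. Pearson's r was -0.98 for Gnmt X06150cds_at (exact permutation p = 0.00278, adjusted over 22 relations 0.0306; Spearman's rho -0.94, p = 0.0167, adjusted 0.122) and -0.95 after the 2 arrays of most extreme index were left out. For Gnmt X06150cds_g_at r was -0.99 (exact permutation p = 0.00278, adjusted 0.0306; rho -0.94, p = 0.0167, adjusted 0.122), and -0.97 without those arrays. For Mat1a r was -0.94 (exact permutation p = 0.00694, adjusted 0.0509; rho -0.94, p = 0.0167, adjusted 0.122), and -0.79 without those arrays. Cbs, which passed no oil test, had r of -0.93 (exact permutation p = 0.0125, adjusted 0.069), and -0.49 without those arrays. For Gnmt rc_AA893219_at, Cth D17370_at, Cth D17370_g_at and Ahcy r was -0.72, -0.70, -0.53 and -0.42, none past the threshold after adjustment. For Cdo1 E03229cds_s_at r was -0.80 (exact permutation p = 0.0486, adjusted 0.178; rho -0.60, p = 0.242, adjusted 0.443), and -0.56 without the 2 arrays of most extreme index. Cdo1 rc_AA942685_at had the opposite sign (r = 0.73, exact permutation p = 0.0806, adjusted 0.233; rho 0.83, p = 0.0583, adjusted 0.214), with r = 0.76 without them, and so had Bhmt (r = 0.58, exact permutation p = 0.232, adjusted 0.510; rho 0.26, p = 0.658, adjusted 0.905), with r = -0.04 without them. The array of 70% corn oil nearest in index to the olive oil arrays, pool 2 at 0.161, also had the highest Mat1a, Gnmt and Cdo1 E03229cds_s_at values of the 6. Its Mat1a value of -0.33 and its Cdo1 value of -0.30 were still below every olive oil array, while its Gnmt X06150cds_at value of 0.73 lay among them. In the 6 olive oil arrays, whose index spans only -0.428 to -0.228, no relation passed after adjustment, and Mat1a had the strongest (r = -0.91, exact permutation p = 0.0222, adjusted 0.0978; rho -0.77, p = 0.103, adjusted 0.283), which was -0.54 without the 2 farthest arrays.

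**Figure D4:**
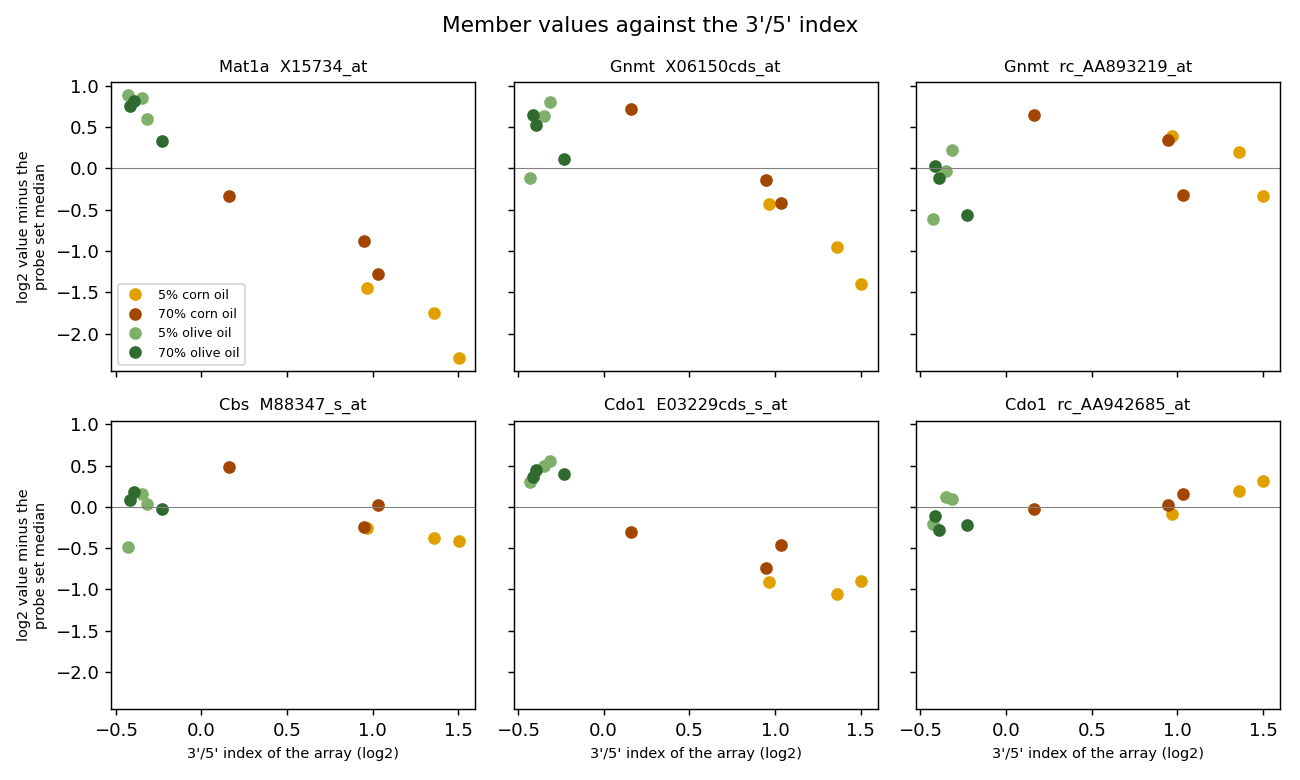
Log2 value of 6 member probe sets (vertical axis) against the 3′/5′ index of the array in log2 (horizontal axis), with 1 point per array coloured by diet. Mat1a and Gnmt X06150cds_at are lower on corn oil arrays of higher index (r of -0.94 and -0.98 over 6 arrays). The olive oil arrays sit at a lower index than every corn oil array. The index is a difference of centred values, so only differences between arrays can be read.

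The spread within diets was wide for most of these genes. The residual SD exceeded that of 88% of all probe sets for 9 of the 11 members, the exceptions being both Cdo1 probe sets (0.14 and 0.15, beside a median of 0.14 over all). It was 0.54 for Cth D17370_at, 0.48 for Gnmt X06150cds_at, 0.38 for Ahcy and 0.35 for Mat1a. The lowest pool of a diet was often the same for several members. Pool 3 of 5% olive oil was the lowest of its diet for 10 of 11 members, Mat1a being the exception. Pool 1 of 70% olive oil was so for 8 of 11, pool 3 of 70% corn oil for 7 and pool 1 of 5% corn oil for 6. The matching shares over all probe sets were not computed. The 11 are also not independent, since several of them moved together, as given next. Across the 12 arrays, deviations from the diet means correlated with r = 0.99 between Ahcy and Cth D17370_at, the pair whose upstream stretches are shown above. The 2 probe sets of Cth gave 0.95, Gnmt X06150cds_at and X06150cds_g_at gave 0.96, and the 2 of Cdo1 gave 0.19. Bhmt followed none of the other genes closely, with r from -0.31 to 0.31. All probe sets of an array share its pooled RNA and its labelling. Differences between the pooled rats and differences in handling cannot be told apart here, and the correlations were not tested.

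Over all 12 arrays and 4729 other genes, the gene whose values were most like those of Mat1a was Ppp2cb (r = 0.99), followed by Eif4a2 and Arf1 (both 0.99). Cdo1 was most like Mapre1 (r = 0.95), Ube2d2 (0.94) and Gpam (0.93), and Gnmt most like Dio1 (0.89), Bmyc (0.88) and Nr2f6 (0.88). Ahcy was most like Pdlim1 (0.91), Psmb3 (0.91) and Hprt1 (0.91). Cth was most like Ephx1 (0.92), Mgst3 (0.89) and Cyp2d3 (0.88), and Cbs most like Fxyd1 (0.92), Tmem205 (0.87) and Ddah1 (0.87). Bhmt had the weakest best likeness, to Ass1 (r = 0.79), Vamp5 (0.79) and Rfk (0.78). Each gene value was the mean of its probe sets, so those of Gnmt and Cdo1 combine probe sets that disagreed. Differences between the diets were left in the values, so r includes them. The genes named are the highest of 4729, and no likeness was tested.

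Around these enzymes, 60 probe sets of 39 genes of methyl and sulfur metabolism were measured. At 5% fat 5 were higher and 12 lower with corn oil, 28.3% in all, beside 19.5% of all tested probe sets (10.1% higher and 9.36% lower). At 70% fat 1 was higher and 6 lower, 11.7%, beside 8.51% (3.96% higher and 4.55% lower). The shares of the single lists below, of 3 to 15 probe sets each, are to be read against the same background. The medians of the 60 changes were 0.05 and -0.07. None of these calls held with the index as a term. In the rest of the methionine cycle 2 of 3 probe sets were lower at 5% fat: Adk, adenosine kinase, which removes the adenosine that Ahcy releases (-1.81 ± 0.23, adjusted p = 0.000378), and Mat2a, the form of the synthetase found mainly outside the adult liver (-0.45 ± 0.10, adjusted p = 0.0103). Adk was also lower at 70% fat (-0.99 ± 0.23, adjusted p = 0.0236), a call that ended when pool 1 or pool 3 of the 70% corn oil diet, or pool 1 or pool 2 of the 70% olive oil diet, was left out (highest adjusted p = 0.0915). Mtr, which remethylates homocysteine with folate, did not pass at 5% fat (0.11 ± 0.08, adjusted p = 0.416) or at 70% fat (-0.21 ± 0.08, adjusted p = 0.144). It did not pass in the mean over fat either (-0.05 ± 0.06).

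Of 7 probe sets of choline and betaine oxidation, the route that makes the betaine used by Bhmt and breaks down its product to glycine, 4 were lower and 0 higher with corn oil at 5% fat. Chdh, choline dehydrogenase, changed by -1.18 ± 0.11 (adjusted p = 9.83e-05) and Sardh, sarcosine dehydrogenase, by -0.60 ± 0.08 in AF067650_at (adjusted p = 0.000471). The other Sardh probe sets were at -0.31 ± 0.10 (L79910_s_at, adjusted p = 0.0482, a call that ended on the removal of 9 of the arrays, singly) and -0.16 ± 0.14 (rc_AA891589_s_at, adjusted p = 0.447). At 70% fat Chdh and Sardh AF067650_at were also lower, at -0.55 ± 0.11 and -0.29 ± 0.08 (adjusted p = 0.0118 and 0.0417), while the other Sardh probe sets did not pass (-0.20 and -0.08). The Chdh call ended without pool 3 of 70% olive oil (adjusted p = 0.0522), and the Sardh call on the removal of 7 of the arrays, singly (highest adjusted p = 0.130). Of the 11 methyltransferase probe sets 1 was higher and 2 lower at 5% fat. Pemt, which makes phosphatidylcholine with S-adenosylmethionine, was lower (-0.77 ± 0.12, adjusted p = 0.00110). Pcmt1, which repairs damaged aspartyl residues, was higher by 0.73 ± 0.16 in M26686_at and lower by 0.54 in M26686_g_at, a further gene whose probe sets disagreed.

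Downstream of Cdo1, of 15 probe sets for cysteine, taurine and sulfide 2 were higher and 3 lower at 5% fat. Csad, which makes hypotaurine from the product of Cdo1, was higher in M64755_at (1.21 ± 0.26, adjusted p = 0.00665). The other Csad probe set was at -0.02 ± 0.15 at 5% fat (adjusted p = 0.928) and at 0.04 ± 0.10 in the mean over fat. Baat, which joins taurine or glycine to bile acids, was higher (0.58 ± 0.12, adjusted p = 0.00476). The lower ones were Kyat1 (-0.82 ± 0.18, adjusted p = 0.00661) and 2 probe sets of Got2. Those were rc_AA892012_g_at (-0.73 ± 0.14, adjusted p = 0.00306) and M18467_at (-0.37 ± 0.10, adjusted p = 0.0202). The M18467_at call ended without pool 2 of 5% corn oil, or pool 1 or pool 2 of 5% olive oil. The other Got2 probe set, rc_AA892012_at, was at 0.34 ± 0.12 (adjusted p = 0.0615). In glutathione synthesis, 1 of 12 probe sets was higher and 1 lower at 5% fat. The lower one was Gclc, the catalytic subunit of the first enzyme of the route, at -2.11 ± 0.35 (adjusted p = 0.00149). It was at -1.40 ± 0.35 at 70% fat (adjusted p = 0.0309), which ended when pool 1 or pool 3 of the 70% corn oil diet, or any pool of the 70% olive oil diet, was left out (highest adjusted p = 0.110).

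**Figure D5:**
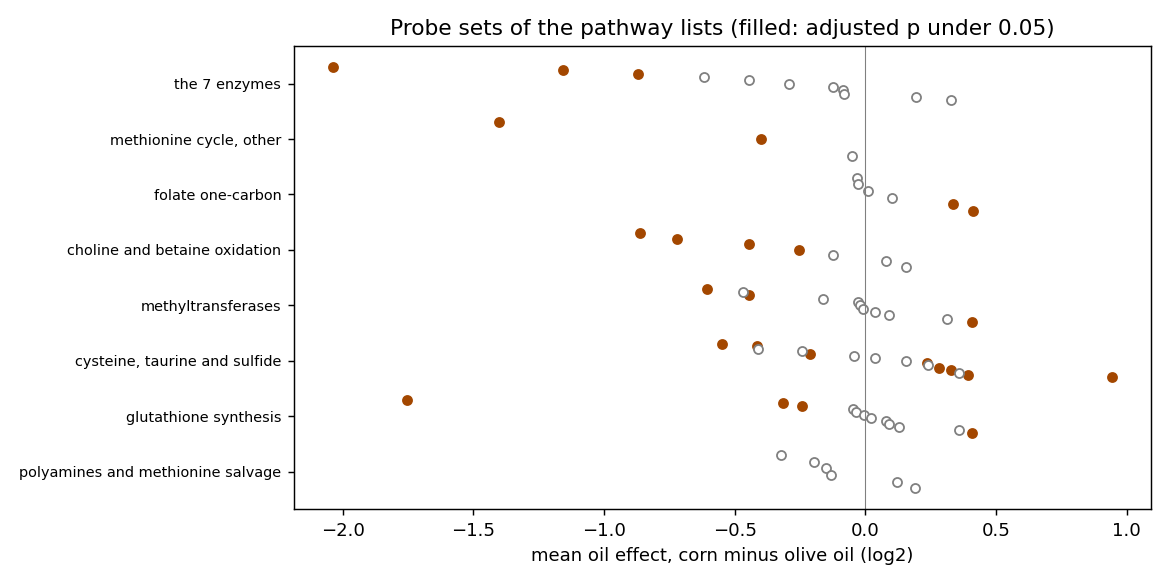
Mean oil effect, corn minus olive oil in log2 (horizontal axis), of each probe set of the 7 enzymes and of 7 lists of related genes (vertical axis), with filled points at an adjusted p under 0.05. Of the 60 probe sets of the lists 9 are higher and 14 lower, and the 3 filled points of the 7 enzymes all lie below 0.

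In the fat comparison with corn oil 1 of these 60 probe sets passed (1.67%, beside 2.11% of all): Mthfd1, which interconverts folate one-carbon units, was lower with 70% fat (-0.77 ± 0.14, adjusted p = 0.0217). This call ended on leaving out pool 1 or pool 2 of the 5% corn oil diet, or pool 2 of the 70% one, and the change was -0.69 with the index as a term (adjusted p = 0.203). With olive oil 0 of 60 passed the limma test, beside 0.435% of all, and 8 had an unadjusted p under 0.05, which 8.46% of all probe sets had. In the mean over both oils Mthfd1 was lower (-0.57 ± 0.10, adjusted p = 0.0114) and Amd1, which decarboxylates S-adenosylmethionine for polyamine synthesis, was higher with 70% fat (0.50 ± 0.10, adjusted p = 0.0178). Amd1 was lost without pool 3 of 70% olive oil (adjusted p = 0.0506), and neither was past the threshold with the index as a term (adjusted p = 0.0613 and 0.0928).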

How the data were processed

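For 12 arrays and 8799 probe sets, log2 values were deposited by the authors, made with GCOS and RMA per the submitters' processing notes. The base of the log is not written in the table and was taken as 2, as RMA gives. Every probe set had a median of 0, within 1e-06, across the 12 arrays, so values were centred per probe set and signal over background is unknown. Labelling with biotin started from 8 ug of RNA, per the labels. There were 0 columns of other samples. After 59 array controls were left out, 8740 probe sets were tested. The platform annotation gave 1 symbol to 7006, several to 308 and none to 1426. Of the 7006, 6985 took the RefSeq symbol of their gene identifier, whether or not it differed, and 21 kept the platform symbol.

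Tests used limma 3.58.1 in R 4.3.3, with 1 mean per diet, all 12 arrays (8 residual degrees of freedom), eBayes without trend, two-sided p-values, and Benjamini-Hochberg adjustment over 8740 probe sets within a contrast (threshold 0.05). Errors of changes are SE and intervals are 95%. Index and probe set pairs were compared by exact permutation tests in Python 3.11.15 with numpy 2.4.6 and pandas 2.3.3. The code was tested on simulated data. Alternatives were 1 value per gene, a second quantile normalization, centred arrays, trend with robust moderation, array weights, fits on the 2 groups compared, the pool number as a block, the index as a term, and a minimum change of 1.5-fold. Each array was also left out in turn. The members, lists and tests were chosen with earlier results of these data known.

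All probe sets of the 7 enzymes are described. Of each related list, up to 4 genes with the smallest p past the threshold per contrast (2 where none passed) could be named, and for each enzyme the 3 genes with the highest r.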

Additional observations from a re-analysis of the deposited data

How the results depend on the processing

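The oil calls of Mat1a and Cdo1 E03229cds_s_at and the count of passing members kept their side of the threshold under a second quantile normalization, centred arrays, trend with robust moderation, fits on the 2 groups compared (not run for the interaction or the means) and a 1.5-fold minimum. With the 3′/5′ index as a term 0 members passed at 5% fat, 0 at 70% fat and 0 in the mean over fat, and Gnmt X06150cds_at turned from -1.37 to 0.75 at 5% fat and from -0.87 to 0.87 in the mean; SEs were also larger, since index and oil move together. With 1 value per gene, 2 of 7 genes passed at 5% fat and in the mean over fat, where Gnmt was lost. At 70% fat 1 passed, and for fat with corn oil 1 (Mat1a, limma adjusted p = 0.0482). Over all 4736 genes 801, 1035, 328 and 120 passed, in the same order. Cdo1 rc_AA942685_at took the value of its gene, -0.64 at 5% fat and -0.48 in the mean over fat, because the mean includes E03229cds_s_at. With array weights the counts were 6 at 5% fat, 5 in the mean over fat and 1 for fat with corn oil. Over all 8740 probe sets that fit called 2632, 2557 and 137, beside 1704, 2120 and 184 in the main fit. The cause was not tested.

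The pool number did not pair the arrays: same-numbered pools of different diets had correlations of deviations from -0.19 to 0.23, and 4 of 12 arrays correlated best with their own number. With the replicate block 1 member passed for fat with corn oil (Mat1a, limma adjusted p = 0.0392), beside 221 of 8740 probe sets, and no other call of a member changed. Without each array in turn the counts ran from 2 to 5 for oil at 5% fat, 3 to 6 for oil in the mean over fat and 0 to 1 for fat with corn oil, and stayed at 2 for oil at 70% fat and at 0 for the other 3 comparisons. Over all 8740 probe sets these fits called 1115 to 2065, 1728 to 2309, 59 to 348 and 311 to 1162, in the order of the comparisons named. Of all 660 changes recomputed in the settings, 45 changed sign while past the threshold in neither fit, and of all 924 recomputed on leaving out an array, 47 did so. A filter on low values could not be applied to centred values. The limits are 3 pools per diet, an index that separates the oils, and unknown signal over background.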
